A study of Mus musculus with 8 samples.

Results

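The phosphatidylinositol transfer proteins are a gene family of lipid carriers, described here in uterine stromal cells of mice at day 3. The 6 members are Pitpna, Pitpnb, Pitpnc1, Pitpnm1, Pitpnm2 and Pitpnm3, taken by symbol from the 23420 gene symbols of the deposited count tables. All 6 symbols were found, and all 6 were among the 14598 genes tested. The family was singled out because Pitpnm3 stood out in the comparison of these same libraries, so the difference of Pitpnm3 between the groups chose the family and is given as a description, with no test.

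The series holds RNA-seq libraries of 2 genotypes, Erbb3f/f (n = 4) and Erbb3d/d (n = 4). Both groups are labelled as stromal cells of the uterus at day 3. The letter f usually stands for a floxed allele, which Cre recombinase can cut, and d for the deleted form. The labels name no Cre line, give no age and do not say from which event the day is counted. The labels do not state whether a library came from 1 animal or from pooled animals, so p-values measure the spread between these libraries, which may be technical.

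Between 8578575 and 12854367 reads were assigned to genes per library. Normalised read counts (CPM) express the reads of a gene relative to the total of its library, after TMM scaling between libraries, which assumes most genes keep their level. The targeted gene, Erbb3, averaged 9.64 ± 2.24 CPM over the Erbb3f/f libraries, against 13.9 ± 4.56 over the Erbb3d/d libraries (SD, n = 4 each). The genotypes overlapped, and the level did not fall with the label. A count over the whole gene cannot show the loss of an exon, so the groups are called by their labels. Of the 14 stromal markers, all were detected, with a summed level of 12367 to 18478 CPM per library. The sums ran from 14733 to 18478 CPM in Erbb3f/f and from 12367 to 17001 CPM in Erbb3d/d, with means of 16398 and 14945 CPM. Of the 14, 3 had a log2 fold change above 0, against 48% of all genes tested. Vim and Pdgfra (2 of 14) lay lower in all 4 Erbb3d/d libraries, as did 2.48% of all genes tested.

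As background, phosphatidylinositol is made in the endoplasmic reticulum and must reach other membranes, where kinases turn it into signalling phosphoinositides. Members of this family carry single lipid molecules through the cytosol and so keep these membranes supplied. Pitpna and Pitpnb are small soluble carriers that exchange phosphatidylinositol for phosphatidylcholine, and Pitpna is the gene mutated in the vibrator mouse. Pitpnc1 is a soluble member of the RdgB type, named for the retinal degeneration B gene of the fly. Pitpnm1, Pitpnm2 and Pitpnm3 are large members of the same type, also called NIR2, NIR3 and NIR1 after their binding to the kinase PYK2. PITPNM1 works at contacts between endoplasmic reticulum and plasma membrane, where it returns phosphatidylinositol after phospholipase C has used it. PITPNM3 is the member that lacks the lipid transfer domain, and it has been proposed as a receptor for a chemokine.

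The large members are shown first by the sequence before their start sites, because the deposited counts of Pitpnm3 differed between the labels while those of its nearest relatives did not separate. Each line gives the 250 bases before a RefSeq start site (GRCm38.p6), written 5′ to 3′ on the gene's own strand, and capitals mark GGGCGG or its reverse complement CCGCCC, known as the GC box. The Pitpnm3 window lies at chr11:72135890-72136139 on the minus strand, the Pitpnm1 window at chr19:4099748-4099997 on the plus strand and the Pitpnm2 window at chr5:124249761-124250010 on the minus strand.
Pitpnm3: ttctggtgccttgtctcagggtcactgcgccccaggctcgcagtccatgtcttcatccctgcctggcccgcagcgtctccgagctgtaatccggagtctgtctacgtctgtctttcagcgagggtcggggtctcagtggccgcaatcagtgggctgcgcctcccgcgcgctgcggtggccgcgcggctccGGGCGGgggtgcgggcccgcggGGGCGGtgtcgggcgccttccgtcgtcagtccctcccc
Pitpnm1: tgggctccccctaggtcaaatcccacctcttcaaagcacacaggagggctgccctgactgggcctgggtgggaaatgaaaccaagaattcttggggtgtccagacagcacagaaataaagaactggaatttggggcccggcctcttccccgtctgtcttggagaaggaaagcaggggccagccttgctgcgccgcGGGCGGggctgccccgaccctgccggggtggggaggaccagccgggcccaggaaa
Pitpnm2: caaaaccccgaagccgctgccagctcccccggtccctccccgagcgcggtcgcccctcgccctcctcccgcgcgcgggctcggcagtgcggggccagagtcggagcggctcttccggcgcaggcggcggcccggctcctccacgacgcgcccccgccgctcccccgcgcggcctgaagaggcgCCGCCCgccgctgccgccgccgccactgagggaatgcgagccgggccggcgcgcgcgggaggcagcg
RefSeq lists 8 such windows for the family, with entries for all 6 members, and Pitpnm1 and Pitpnm2 have a further start site each.

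The Pitpnm3 window had 2 GC boxes, 28 CpG dinucleotides and a GC content of 70.8%. The Pitpnm1 window had 1 GC box, 9 CpG and 62.8% GC, and the Pitpnm2 window 1 GC box, 44 CpG and 81.6% GC. Over all 32851 RefSeq windows of this length, the median was 6 CpG and 52.4% GC, and 32.7% held a GC box on either strand. A further 3 motifs were searched on both strands, and none of the 8 windows of the family held one. They were the E-box CACGTG, present in 6.02% of all windows, the TATA box TATAAA (12.4%) and the AP-1 site TGANTCA (6.75%). The Pitpnb window had 27 CpG. At the further start sites, the Pitpnm1 window had 1 GC box and 10 CpG, and the Pitpnm2 window had 2 GC boxes and 11 CpG. These matches describe letters in the windows and were not tested against the counts.

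Pitpnm3 has 19 merged exons on the minus strand of chromosome 11, from 72047528 to 72135778 in GENCODE vM21 on GRCm38, the build of all gene positions given here. Its reads in Erbb3f/f replicates 1 to 4 numbered 4, 2, 1 and 2, which is 0.390, 0.209, 0.0786 and 0.226 CPM. In Erbb3d/d replicates 1 to 4 it had 24, 23, 26 and 28 reads, which is 2.36, 2.68, 2.05 and 2.46 CPM. All 4 Erbb3d/d libraries lay above all 4 Erbb3f/f libraries, and the lowest of them, replicate 3, was still above the highest Erbb3f/f library, replicate 1. The Erbb3f/f mean was 0.226 ± 0.128 CPM and the Erbb3d/d mean 2.39 ± 0.263 CPM (SD, n = 4 each). In bulk RNA, fewer cells that express a gene and less RNA per cell cannot be told apart, so the counts do not show how many cells carried Pitpnm3 transcripts.

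The fitted log2 fold change of Pitpnm3 was 3.37 (SE 0.49), with a 95% interval of 2.27 to 4.46. Pitpnm3 passed the filter on low counts only through its Erbb3d/d libraries. By fold change it ranked 1 among the 14598 genes, counted from the highest, which describes the choice of the gene and supports nothing. The size is imprecise because Erbb3f/f holds 9 reads in all, against 101 in Erbb3d/d. The ratio of the summed reads, scaled to library size, was 10.8 with an exact 95% interval of 5.49 to 24.4, which covers counting error only. With a prior count of 2 the log2 fold change was 2.64, since a larger prior pulls low genes towards no difference.

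Whether a read pair was counted once or as both its reads is not given in the sources used here. More genes had 4 reads than 3 in 6 of 8 libraries, and more had 6 than 5 in 4 of 8. If every 2 reads of a library are taken as 1 pair, rounded up, a setting chosen after seeing the data, Pitpnm3 has 5 pairs in Erbb3f/f and 51 in Erbb3d/d, a ratio of 9.85 (exact 95% interval 3.96 to 31.6).

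**Figure D1:**
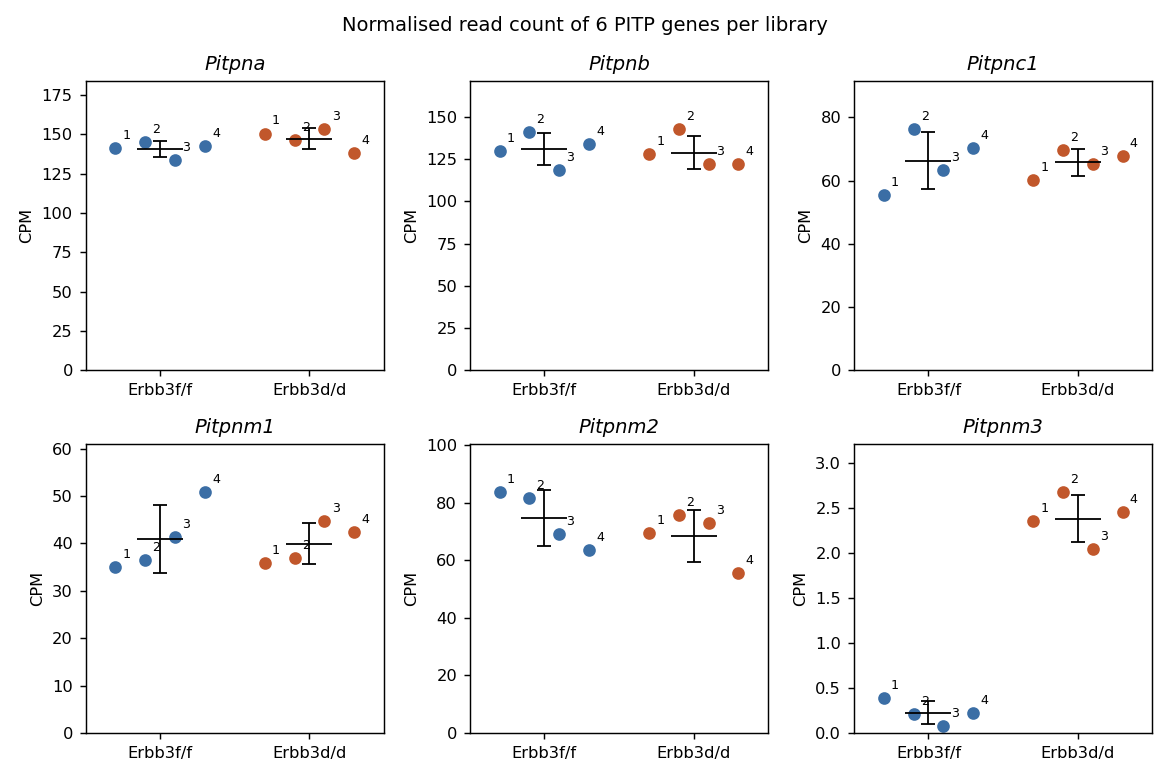
Normalised read count (CPM, axes from 0) of each member in 4 Erbb3f/f and 4 Erbb3d/d libraries, with points for libraries (replicate number beside them) and bars for the mean and SD. Pitpnm3 runs from 0.0786 to 0.390 CPM in Erbb3f/f and from 2.05 to 2.68 CPM in Erbb3d/d, while the groups of the other 5 members overlap.

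Its 2 large relatives did not separate the labels. Pitpnm1, on chromosome 19 at 4099998 to 4113965 on the plus strand, had 35.0, 36.5, 41.3 and 50.9 CPM in Erbb3f/f replicates 1 to 4. In Erbb3d/d replicates 1 to 4 it had 35.9, 36.9, 44.8 and 42.4 CPM. The highest and the lowest library of Pitpnm1 were both Erbb3f/f, so the Erbb3d/d values lay inside the Erbb3f/f range. Its log2 fold change was -0.03 (SE 0.14), and edgeR's quasi-likelihood test gave it an adjusted p of 0.948. The 95% interval allows a change from -21.0% to 21.0%.

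Pitpnm2, on the minus strand of chromosome 5 from 124118690 to 124249760, had 83.8, 81.7, 69.3 and 63.7 CPM in Erbb3f/f replicates 1 to 4. In Erbb3d/d replicates 1 to 4 it had 69.5, 75.7, 73.0 and 55.4 CPM. Erbb3d/d replicate 4 was the lowest library and Erbb3f/f replicates 1 and 2 the highest. Between them, Erbb3d/d replicates 1 to 3 lay above Erbb3f/f replicates 3 and 4, the closest at 69.5 and 69.3 CPM. The log2 fold change was -0.13 (SE 0.13), and its interval ran from -24.5% to 11.3%. By edgeR the adjusted p was 0.739. Of the 5 relatives of Pitpnm3, Pitpnm2 had the log2 fold change farthest from 0.

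The soluble carriers varied least over the 8 libraries, with coefficients of variation of 4.49% for Pitpna, 6.94% for Pitpnb and 9.89% for Pitpnc1, against 13.6% for Pitpnm1 and 13.0% for Pitpnm2. Pitpna, on chromosome 11 at 75588097 to 75628804 on the plus strand, had 141, 145, 133 and 142 CPM in Erbb3f/f replicates 1 to 4 and 150.5, 147, 153 and 138 CPM in Erbb3d/d replicates 1 to 4. In 3 of the 4 Erbb3d/d libraries it was above the highest Erbb3f/f value, and replicate 4 fell within the Erbb3f/f range. The log2 fold change was 0.07 (SE 0.08), and its interval ran from -6.81% to 17.5%. By edgeR the adjusted p was 0.771.

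Pitpnb, on chromosome 5 at 111330763 to 111388359 on the plus strand, had 129.9, 141, 118 and 134 CPM in Erbb3f/f replicates 1 to 4 and 128, 143, 122 and 122 CPM in Erbb3d/d replicates 1 to 4. Replicate 2 was the highest library under both labels, and the ranges lay nearly on top of each other. Its log2 fold change was -0.02 (SE 0.09), and its interval ran from -14.2% to 12.8%. By edgeR the adjusted p was 0.939. In GENCODE vM21, 22.9% of the exon bases of Pitpnb are shared with exons of Gm43118 on the other strand. The libraries are non-directional, so reads of these bases cannot be assigned to a strand. No other member shares exon bases with another gene in that annotation.

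Pitpnc1, on the minus strand of chromosome 11 from 107207892 to 107470699, had 55.3, 76.2, 63.2 and 70.3 CPM in Erbb3f/f replicates 1 to 4. In Erbb3d/d replicates 1 to 4 it had 60.0, 69.8, 65.3 and 67.7 CPM. As for Pitpnm1, all 4 Erbb3d/d libraries lay inside the Erbb3f/f range. The log2 fold change was -0.01 (SE 0.11), and its interval ran from -16.5% to 17.8%. By edgeR the adjusted p was 0.977.

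Taking the 5 members other than Pitpnm3 as a group, edgeR called 0 of 5 at an adjusted p under 0.05, and 0 of all 14598 genes tested (0%). At an unadjusted p under 0.05 there were 0 of 5, against 11.6% of all genes (6.64% higher and 4.97% lower in Erbb3d/d). DESeq2 called 0 of the 5, and 271 of the 15163 genes it gave an adjusted p (1.79%). None of the 5 had libraries that did not overlap between the labels, against 5.04% of all genes, and Pitpnm3 was among the 2.56% of genes whose Erbb3d/d libraries all lay higher (2.48% all lay lower). The log2 fold change was above 0 for 1 of the 5, Pitpna, and for 48% of all genes. Their median log2 fold change was -0.02, beside -0.01 over all genes tested. The CPM of the 5 members summed to 453 ± 23.4 under the Erbb3f/f label and 449.9 ± 19.9 under the Erbb3d/d label (SD, n = 4 each), with a two-sided exact permutation p of 0.771, where the smallest p possible is 0.0286. Within its family Pitpnm3 was the member whose libraries separated, which is what it was picked for. The difference between Pitpnm3 and its relatives was not tested.

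A ratio within each library does not depend on scaling between libraries. Pitpnm3 reads made up 0.0874%, 0.0435%, 0.0185% and 0.0490% of the reads of all 6 members in Erbb3f/f replicates 1 to 4. In Erbb3d/d replicates 1 to 4 they made up 0.529%, 0.566%, 0.445% and 0.574%. Every Erbb3d/d share lay above every Erbb3f/f share. These shares restate the difference that Pitpnm3 was picked for, so they are a description and no separate support. The family as a whole was represented by 4067 to 5847 reads per library. Pitpnm3 thus stayed a very small part of the family under both labels.

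Levels of different genes were compared per kilobase of merged exons. Pitpnb was highest with 38.4 CPM per kb over the 8 libraries, followed by Pitpna with 34.8. Their ranges overlapped, and Pitpnb was the higher in 7 of 8 libraries. Pitpnc1 came next with 9.98 CPM per kb, below Pitpna and above Pitpnm1 in 8 of 8 libraries. Pitpnm1 and Pitpnm2 stood at 5.75 and 5.57 CPM per kb, each higher in 4 of 8 libraries, and changed places when the longest transcript was used as the length (8.12 and 10.3).

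Pitpnm3 was the lowest member in every library. Its Erbb3f/f level was 0.0230 ± 0.0130 CPM per kb and its Erbb3d/d level 0.243 ± 0.0268 CPM per kb (SD, n = 4 each). In Erbb3d/d the level of Pitpnm1 was still 23.4 times that of Pitpnm3, and that of Pitpnb 157 times.

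**Figure D2:**
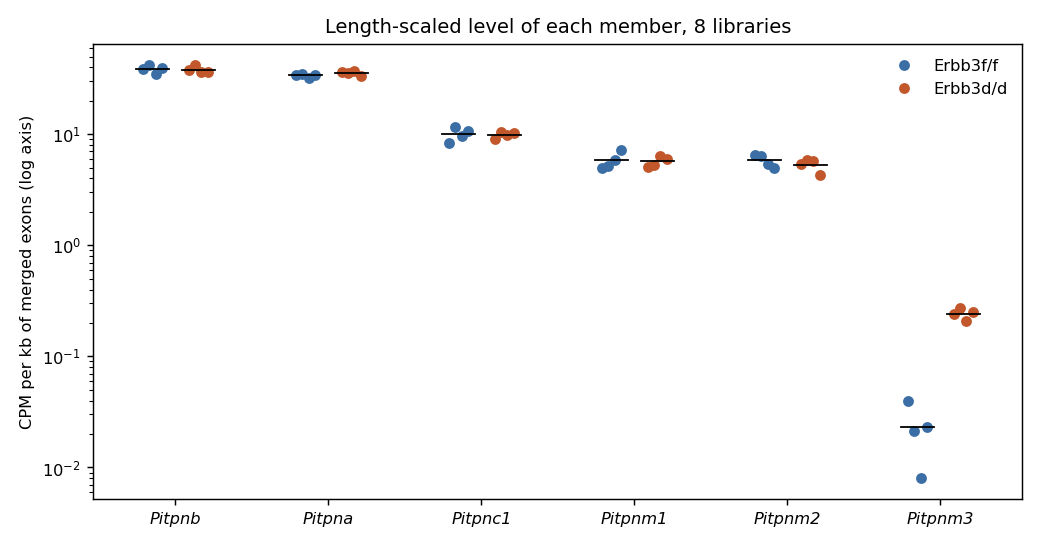
Level of each member per kilobase of merged exons (CPM per kb, log axis), with 1 point per library and a line at the mean of each genotype. The 5 other members lie between 4.32 and 42.3 CPM per kb, and Pitpnm3 between 0.00800 and 0.273.

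The neighbourhood of Pitpnm3 was read out because its counts are low and the libraries carry no strand. Pimreg, a gene linked to cell division and listed in the tables under its older symbol Fam64a, runs towards Pitpnm3 on the plus strand and ends 158 bases from its 3′ end. It had 4.87, 7.23, 5.34 and 9.84 CPM in Erbb3f/f replicates 1 to 4 and 4.72, 5.83, 6.86 and 7.37 CPM in Erbb3d/d replicates 1 to 4. Its labels overlapped, with a log2 fold change of -0.13 (SE 0.28) and an adjusted p of 0.886 by edgeR.

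Farther along the same side, Aipl1, a photoreceptor gene, had at most 6 reads in a library. Wscd1 beyond it averaged 1.57 ± 1.51 CPM under the Erbb3f/f label and 2.96 ± 1.59 under the Erbb3d/d label (SD, n = 4 each), with overlapping libraries. On the other side, 4933427D14Rik lies 18151 bases away and averaged 34.5 ± 4.47 and 31.6 ± 2.62 CPM under the same labels (SD, n = 4 each). Txndc17, a thioredoxin-like gene beyond it, had a log2 fold change of 0.00 (SE 0.13). Of the 5 neighbours with counts, 4 passed the filter on low counts. Of these 4, 0 separated the labels, against 5.04% of all genes, and edgeR called 0, against 0% of all genes. So few genes cannot be told apart from the background. RefSeq also places a long noncoding RNA, Gm46286, inside Pitpnm3 at 72051169 to 72055528, and reads from it would not be told apart from Pitpnm3 where exons coincide.

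The genes most like Pitpnm3 were sought by the root mean square difference between centred log2(CPM + 0.5) profiles over the 8 libraries. The 5 nearest were Mustn1 (difference 0.40), 4930426L09Rik (0.43), Pthlh (0.44), Kcnmb1 (0.45) and Hpca (0.47). Mustn1 is known from muscle and skeletal tissue, Kcnmb1 encodes a subunit of a potassium channel of smooth muscle, Pthlh encodes parathyroid hormone-related peptide and Hpca a neuronal calcium sensor.

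The measure picks genes that split the labels by a similar step, so that split is part of the choice. Like Pitpnm3, 4930426L09Rik and Hpca passed the filter on low counts through Erbb3d/d, with Erbb3f/f means of 0.508 and 0.588 CPM. Mustn1 averaged 2.92 ± 0.527 CPM under the Erbb3f/f label and 12.4 ± 4.82 under the Erbb3d/d label (SD, n = 4 each). Kcnmb1 had 13.2 ± 4.02 and 37.7 ± 12.7 CPM, and Pthlh 2.26 ± 0.737 and 8.16 ± 2.04 CPM (SD, n = 4 each). Within Erbb3d/d these genes spread more than Pitpnm3, which was picked for its difference between the labels, a choice that favours a small spread. Mustn1 ran from 7.01 CPM in replicate 3 to 18.7 CPM in replicate 4, while Pitpnm3 ran from 2.05 to 2.68 CPM. The list depends on the pseudocount, and with a pseudocount of 2 only 1 of the 5 genes, 4930426L09Rik, was again among the nearest 5.

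**Figure D3:**
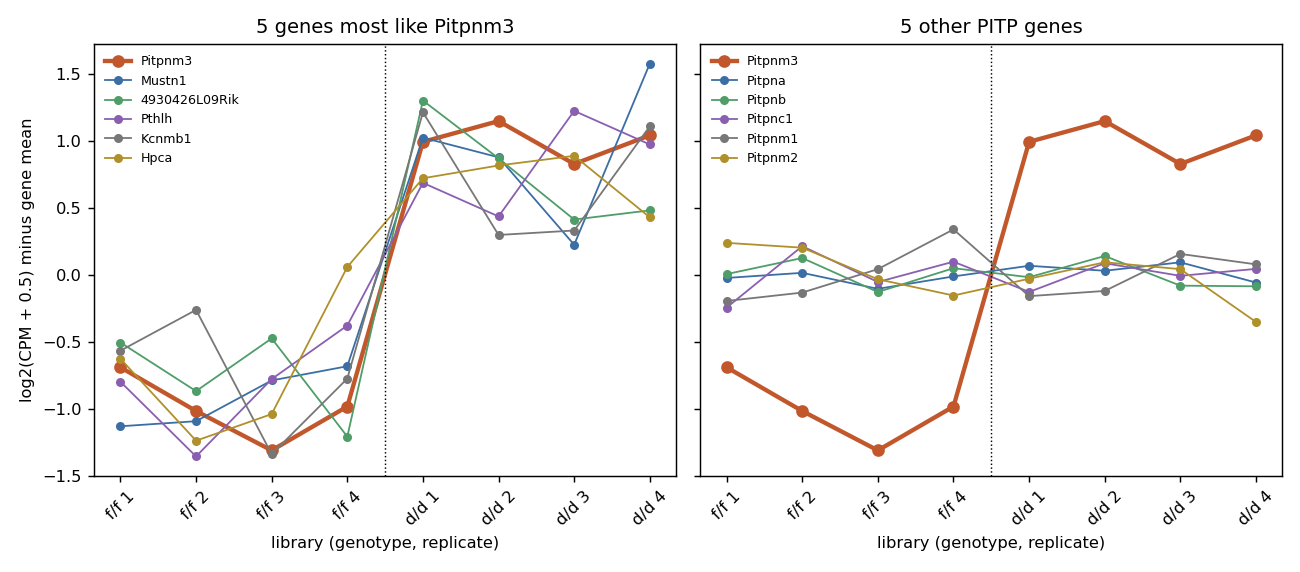
Centred log2(CPM + 0.5) of Pitpnm3 in the 8 libraries beside the 5 genes most like it (left) and beside the 5 other members (right), with lines that only guide the eye, since replicates have no order. Pitpnm3 steps up between the labels while its 5 relatives stay near 0.

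The wider phosphoinositide machinery was read from lists of 71 genes, of which 66 were tested. By edgeR none of these genes was called (0 of 66, against 0% of all genes). At an unadjusted p under 0.05 there were 6 higher and 3 lower, 13.6% against 11.6% of all genes. DESeq2 called 1, Plcd3, against its 1.79% of all genes. The labels did not overlap for 3 of 66 (4.55%, against 5.04% of all genes). The median log2 fold change was 0.02, beside -0.01 over all genes. These shares are close to the background.

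Genes that make phosphatidylinositol did not separate the labels. Cdipt, which joins inositol to the lipid backbone, averaged 135 ± 13.3 CPM under the Erbb3f/f label and 133 ± 13.9 under the Erbb3d/d label (SD, n = 4 each). Cds1 and Cds2, which make the activated precursor, had log2 fold changes of 0.37 (SE 0.19) and 0.25 (SE 0.11), and edgeR gave adjusted p-values of 0.494 and 0.418. Pi4ka, the kinase that makes phosphatidylinositol 4-phosphate at the plasma membrane, had 26.2 ± 1.12 and 22.3 ± 3.15 CPM (SD, n = 4 each), with a log2 fold change of -0.23 (SE 0.13).

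A few list genes, 3 of 66 (4.55%, against 5.04% of all genes), separated the labels without passing edgeR's adjusted test. Plcd3 and Plcd4, phospholipases C that split the phosphoinositide PIP2, were the 2 with higher Erbb3d/d libraries. Plcd3 had 20.5, 14.7, 14.6 and 19.6 CPM in Erbb3f/f replicates 1 to 4 and 25.4, 24.5, 34.9 and 27.6 CPM in Erbb3d/d replicates 1 to 4. Its log2 fold change was 0.70 (SE 0.17), and the adjusted p was 0.236 by edgeR and 0.0201 by DESeq2. Plcd4 had 1.56, 1.99, 2.20 and 3.05 CPM in Erbb3f/f replicates 1 to 4 and 4.72, 3.50, 5.44 and 3.77 CPM in Erbb3d/d replicates 1 to 4, with a log2 fold change of 0.99 (SE 0.32) and an adjusted p of 0.311 by edgeR.

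Ocrl, a phosphatase that removes a phosphate from PIP2, was the gene with lower Erbb3d/d libraries. It had 81.4, 81.3, 78.0 and 71.7 CPM in Erbb3f/f replicates 1 to 4 and 70.1, 70.1, 58.1 and 70.01 CPM in Erbb3d/d replicates 1 to 4. The closest libraries, Erbb3f/f replicate 4 and Erbb3d/d replicate 2, differed by little. The log2 fold change was -0.22 (SE 0.10), and edgeR gave an adjusted p of 0.416.

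For the named partners of the NIR proteins the libraries of the labels overlapped. Vapa and Vapb, the endoplasmic reticulum proteins that hold PITPNM1 and PITPNM2 at that membrane, had log2 fold changes of 0.02 (SE 0.09) and -0.13 (SE 0.10). All 12 contact site and lipid transfer genes of that list were tested, and 0 had an unadjusted p under 0.05, against 11.6% of all genes. Ptk2b, which encodes PYK2, averaged 55.9 ± 5.24 CPM under the Erbb3f/f label and 51.7 ± 8.47 under the Erbb3d/d label (SD, n = 4 each). Ccl8, a chemokine gene listed because of the proposed receptor role of PITPNM3, had 6.32 ± 2.14 and 9.07 ± 4.89 CPM (SD, n = 4 each), with overlapping labels and an adjusted p of 0.619 by edgeR.

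**Figure D4:**
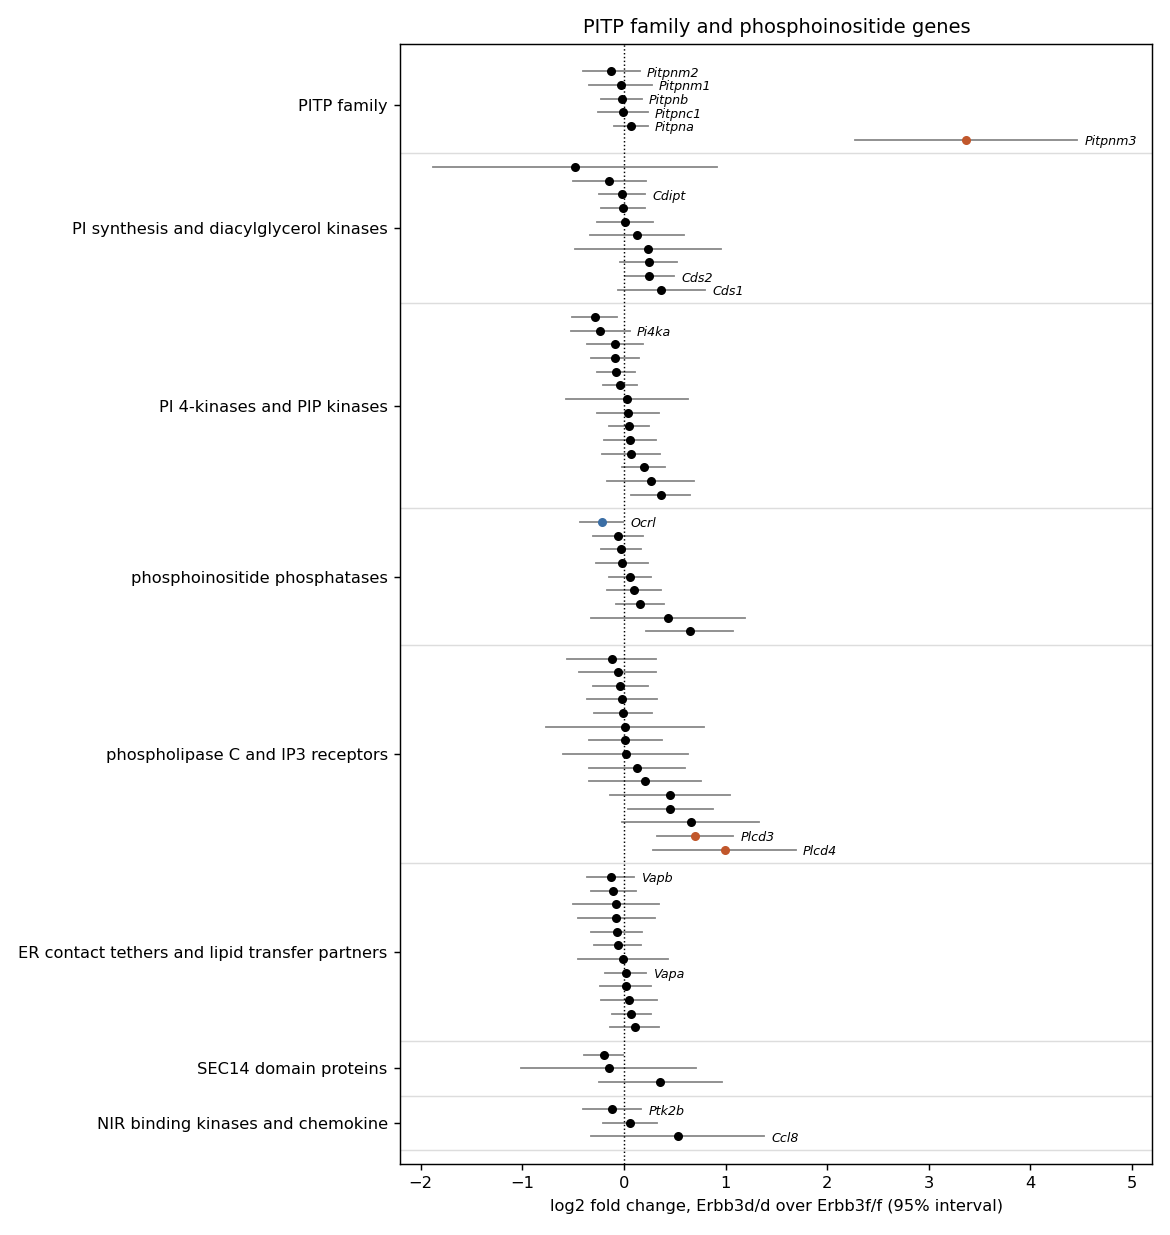
Log2 fold change, Erbb3d/d over Erbb3f/f, with its 95% interval for the 6 members and the 66 tested phosphoinositide genes, grouped by list, with orange and blue points for genes whose Erbb3d/d libraries all lie higher or all lower. Pitpnm3 stands at 3.37, and the next largest value in the plot is 0.99 for Plcd4.

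Markers of other cell types also differed between the libraries. The 11 smooth muscle markers summed to 1827 to 3034 CPM in Erbb3f/f and 2932 to 6118 CPM in Erbb3d/d, with means of 2532 and 4041 CPM. Of the 11, 10 had a log2 fold change above 0 (48% of all genes), and Myh11, Cnn1 and Mylk were higher without overlap (3 of 11, against 2.56% of all genes). The 14 epithelial markers summed to 962 to 1569 CPM in Erbb3f/f and 1487 to 2421 CPM in Erbb3d/d, with means of 1290 and 1953 CPM. Of the 14, 12 had a log2 fold change above 0, and Krt19, Cldn4 and Cldn7 were higher without overlap (3 of 14, against the same shares of all genes). The part of smooth muscle or epithelial RNA in the Pitpnm3 difference was not tested.

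Other marker lists overlapped more fully. Summed endothelial markers ran from 232 to 478 CPM in Erbb3f/f and 234 to 495 CPM in Erbb3d/d, immune markers from 1095 to 2690 and 1567 to 1974 CPM, and mesothelial markers from 45.6 to 163 and 27.4 to 126 CPM. Nerve and Schwann cell markers ran from 59.5 to 94.0 and 27.4 to 106 CPM, with Sox10 at 0 in every library, and adipocyte markers reached at most 1.02 CPM. A fit that held the smooth muscle mean as a covariate gave Pitpnm3 a log2 fold change of 3.02 (SE 0.66), and one with the epithelial mean gave 3.18 (SE 0.69). Both marker sums were higher on average under the Erbb3d/d label, so these fits cannot tell marker level and label apart.

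**Figure D5:**
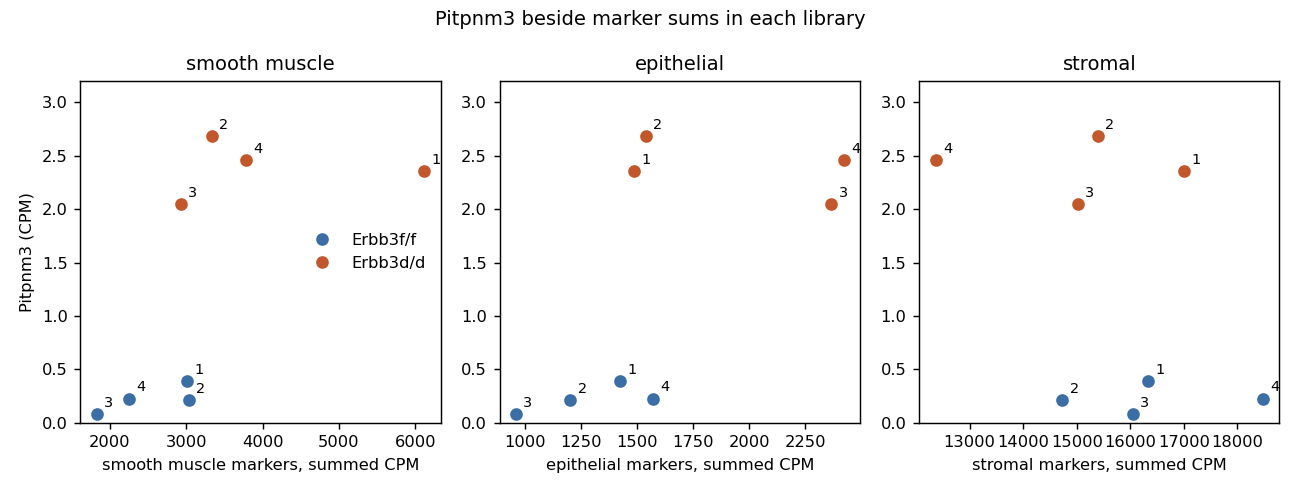
Pitpnm3 (CPM) in each library against the summed CPM of smooth muscle, epithelial and stromal markers, with replicate numbers beside the points. Smooth muscle sums run from 1827 to 3034 CPM in Erbb3f/f and from 2932 to 6118 CPM in Erbb3d/d, epithelial sums from 962 to 1569 and from 1487 to 2421 CPM.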

How the data were processed

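Polyadenylated RNA of 8 libraries was sequenced as non-directional read pairs, per the labels' protocols. The authors deposited raw read counts per gene symbol. The submitters' processing notes name HISAT2, SAMtools, HTSeq, StringTie and the builds mm10 and GRCm38, with no role or option, and the gene annotation is not given in the sources used here. Lines that name no gene held 70.9% to 73.0% of entries and were left out.

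Libraries were grouped by the genotype and replicate number in their titles. Counts were filtered by filterByExpr and tested in R 4.3.3 with edgeR 4.0.16 (TMM scaling, robust quasi-likelihood test, intercept and genotype), with Benjamini-Hochberg adjustment over all genes tested. The test was checked on simulated counts with the same spread for every gene and large changes, a simpler case than these data. DESeq2 1.42.0, other scalings, no filter, covariates, a replicate block and leaving out each library were tried as alternatives. Gene models came from GENCODE vM21, start site sequences from RefSeq, and both were handled in pandas 2.3.3 under Python 3.11.15. The replicate numbers were not taken as pairs. The members, the 71 phosphoinositide genes and the marker lists were chosen with earlier results of these data known. The rule for named genes took, from the lists, Cdipt, Cds1, Cds2, Pi4ka, Vapa, Vapb, Ptk2b and Ccl8 and up to 4 genes per direction whose labels did not overlap, with the 5 genes most like Pitpnm3 and the 3 nearest protein-coding genes on each side of it. One of these neighbours, Gm43951, had no entry under that symbol in the deposited counts, so it was not analysed here.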

Additional observations from a re-analysis of the deposited data

Results flagged for a closer look

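A search for single libraries that lay far from the other 3 of their label covered 74 sets of 4 values and found 1, where chance alone gives about 3.7. Ocrl in Erbb3d/d replicate 3 had 58.1 CPM, and its nearest neighbour among the Erbb3d/d libraries had 70.01 CPM. None of the 6 family members had such a library under either label.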

How the results depend on the processing

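Pitpnm3 stayed higher in Erbb3d/d in all 16 alternatives, a direction that 1 to 4 reads against 23 to 28 nearly fix in advance. In 12 of them its log2 fold change moved by less than the pooled SD within labels. That SD was taken on log2(CPM + 0.5), a scale that compresses low values more than the fit does. The log2 fold change of Pitpnm3 was 2.64 with a prior count of 2, 3.02 with the smooth muscle mean as a covariate and 3.44 with DESeq2. When 1 library was left out it was 3.04 to 3.78, highest without Erbb3f/f replicate 1 and lowest without Erbb3f/f replicate 3. The other 5 members gave 0 calls in all 15 alternatives. Most of these settings called no gene at all, so 0 of 5 was fixed there. Calls came only with DESeq2 (271 of 15163), with the replicate block (52 of 14598) and without Erbb3d/d replicate 2 (259 of 14774). Pitpna and Pitpnm2 kept their direction in all 15. With the smooth muscle covariate the log2 fold change of Pitpnm1 was 0.19 (SE 0.19) and that of Pitpnc1 0.052. With the epithelial covariate they were -0.22 (SE 0.19) and -0.042. Leaving out 1 library gave -0.093 to 0.088 for Pitpnm1, -0.074 to 0.023 for Pitpnb and -0.082 to 0.071 for Pitpnc1, values on both sides of 0. The cause was not tested. Of the phosphoinositide lists, DESeq2 called 1 gene, Plcd3. Leaving out 1 library gave 0 to 1 calls, the 1 being Synj2 without Erbb3d/d replicate 2 (adjusted p 0.0347 in edgeR). That setting called 259 of 14774 genes in all. Of the 5 genes most like Pitpnm3, 1 was shared with a pseudocount of 2. The order of levels kept 4 of 6 places with the longest transcript and 6 of 6 with DESeq2 size factors.

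With the replicate number as a block, the log2 fold change of Pitpnm3 was 3.39 (SE 0.54), and calls over all genes went from 0 to 52. DESeq2 called 271 genes in all and edgeR 259 without Erbb3d/d replicate 2. The 52, out of 14598 genes tested, held none of the other 5 members and no listed phosphoinositide gene. With so small a share called over all genes, finding none says little about these members. Correlations of deviations between libraries of the same number were 0.221, 0.159, 0.0959 and 0.145. Erbb3f/f replicates 1, 2 and 3 correlated best with their own number and replicate 4 with Erbb3d/d replicate 3. The labels do not say what a number marks and 1 correlation was under 0.1, so the numbers were not taken as pairs. All of the correlations were positive, and pairing was not tested. Depth limits Pitpnm3 most, at 1 to 4 reads per Erbb3f/f library.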
